A study of Mus musculus with 18 samples.

Results

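Day 6 (D6, 3 libraries) of a differentiation of mouse embryonic stem cells toward heart muscle was set against its neighbours in time, day 5 (D5, 3 libraries) and day 7 (D7, 3 libraries). These 9 libraries of poly(A) RNA are part of a time course of 18, whose other 9 came from D8, D10 and D15. A single cell line, TBX5-FTA, gave all libraries and was left untreated. It derives from A2Lox.cre embryonic stem cells, which were built to accept a transgene at a chosen site. Samples of D5, D6 and D7 carried the name of cardiac progenitors, and those of D8, D10 and D15 the name of immature cardiomyocytes. The labels do not state that libraries of the same day were grown as separate cultures, and the spread that enters each p-value may therefore be only technical.

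The comparison asked which genes stood higher or lower at D6 than on both sides of it, and not merely midway along a rise or a fall. For each gene the log2 level at D6 was set against the mean of D5 and D7, both days weighted equally, and this difference is called the contrast. A gene was called at a Benjamini-Hochberg adjusted p under 0.05. A peak was a gene called higher in the contrast and also higher than D5 and than D7 in their own tests, and a dip was the same in the downward direction. The size of a peak or dip is the smaller of its 2 steps. Genes called in the contrast but level with, or between, their neighbours are given as bends. Levels are CPM, counts divided by the size of the library and scaled for composition, a unit that allows a gene to be compared between days but not with another gene.

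In the embryo, cells of this stage leave a mesodermal state, take up a position along the body axis that HOX genes record, and begin to build the contractile apparatus of heart muscle. They divide fast, and fast division calls for amino acids, lipids and nucleotides, whose supply genes respond to the state of the medium as well as to development. Of the 9 progenitor markers, Tbx20, Gata4, Hand2, Mef2c, Pdgfra and Kdr were plain in all 9 libraries, with 46.0 CPM for Kdr as the lowest value of the 6. Tbx5, a T-box factor of the first heart field, had 6.55, 6.57 and 6.14 CPM at D5, 20.8, 15.8 and 11.7 CPM at D6, and 35.7, 28.9 and 13.3 CPM at D7. Isl1, a factor of the second heart field, had 16.6, 17.8 and 11.3 CPM at D5, 13.9, 9.34 and 6.02 CPM at D6, and 9.23, 7.25 and 3.26 CPM at D7. Nkx2-5, a defining factor of heart progenitors, was near the limit of detection with 0.437, 2.10 and 0.136 CPM at D5, 1.53, 1.53 and 0.317 CPM at D6, and 3.28, 1.39 and 0.465 CPM at D7, so it does not mark these cultures.

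Total counts ran from 6208403 to 7122093 over the 9 libraries, and no pair of libraries of a day looked like a copy. A D6 library (MR24 in the table) and a D7 library (MR27) had the lowest heart muscle values of their day. This order was not particular to D6 and D7. On all 6 days the last-numbered library had the lowest sum of sarcomere genes and the highest sum of fibroblast and matrix genes. At D8, for example, the sarcomere sums were 5823, 4933 and 3339 CPM. What part this recurring order has in the results was not tested, and no block was fitted for it. Myh6, the alpha myosin heavy chain, had 7.28, 9.37 and 6.68 CPM at D5, 53.5, 31.6 and 14.7 CPM at D6, and 158, 129 and 36.9 CPM at D7, with MR24 and MR27 as the last value of D6 and of D7. Only 79.8% of the 50-base stretches of Myh6 were unique and its exons overlap Gm49130, so its counts are uncertain. Counts of calls were also made without MR24 and MR27, an alternative chosen after the data were seen. This alternative kept MR21, the last-numbered library of D5. The cultures also held RNA of other cell types. Summed markers of endothelium ran from 177 to 207 CPM at D5, from 448 to 528 CPM at D6 and from 438 to 593 CPM at D7. Those of fibroblasts and matrix ran from 3403 to 3662 CPM at D5, from 7803 to 8894 CPM at D6 and from 12090.3 to 16095 CPM at D7. In bulk RNA, fewer cells of a type and less RNA per cell cannot be told apart, and what part these cells have in the results below was not tested.

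Of 23337 gene symbols, 13116 passed the filter on low counts. In the contrast 1577 genes were called higher at D6 (12% of genes tested) and 1182 lower (9.01%). Without the D6 library MR22 these counts were 1038 and 727. Set against D5 alone, 2386 genes were higher at D6 (18.2%) and 2154 lower (16.4%), and against D7 alone 2007 were higher (15.3%) and 1977 lower (15.1%). Peaks were 360 genes (2.74%) and dips 363 (2.77%), so most called genes were bends: 1217 of those higher and 819 of those lower. Without MR24 and MR27 there were 256 peaks, 235 of them among the 360, and 251 dips, 225 of them among the 363. Most peaks and dips were shallow. The median size was 0.34 for peaks and 0.40 for dips on the log2 scale, and both steps were at least 2-fold in 28 peaks and 47 dips. No D6 library overlapped a D5 or D7 library in 340 of the 360 peaks and 336 of the 363 dips. This separation largely follows from the tests that define the 2 classes and is no further evidence for them.

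Whether a peak belonged to D6 alone depended on the later days. Of the 360 peaks, 194 (53.9%) were also called above each of D8, D10 and D15, and of the 363 dips, 139 (38.3%) were called below each of the 3. For 227 peaks and 236 dips, D7 against D5 did not pass the test. The same shares over all genes tested were not counted. The D6 libraries that define both classes also enter the tests against later days, so these shares are no separate evidence.

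**Figure D1:**
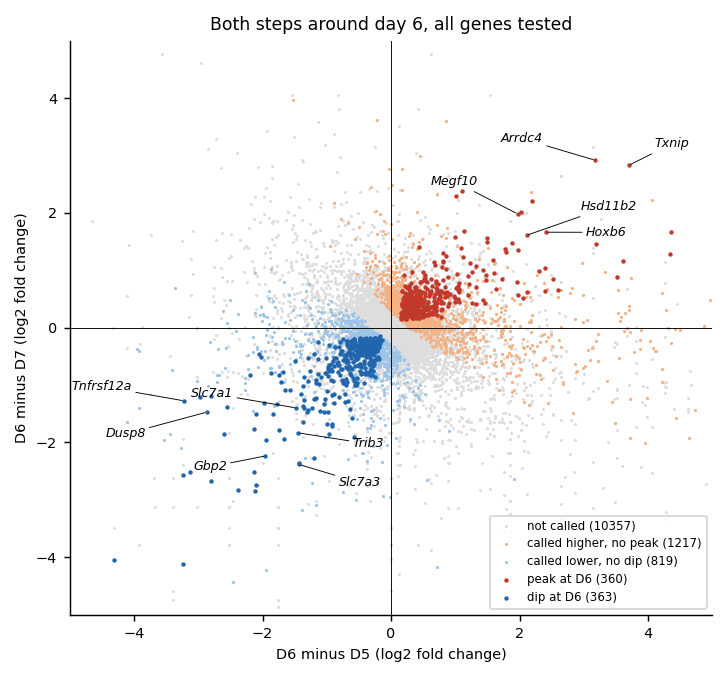
Step from D5 (horizontal, D6 minus D5) and step from D7 (vertical, D6 minus D7), both as log2 fold changes, for the 13116 genes tested, with 30 genes beyond the limits of 5 not drawn. The 360 peaks lie in the upper right and the 363 dips in the lower left, and Txnip and Arrdc4 stand farthest out among the labelled peaks.

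The highest peaks at D6 were Arrdc4 and Txnip, a pair of alpha-arrestins. Txnip restrains glucose uptake and binds thioredoxin, and both genes are known targets of the MondoA and ChREBP factors, which sense sugar phosphates and bind paired E-boxes. Txnip had 8.88, 7.69 and 9.82 CPM at D5, 146, 109 and 89.2 CPM at D6, and 18.3, 19.1 and 10.9 CPM at D7. Every D6 library lay more than 4-fold above every D5 and D7 library in this gene. Its contrast was 3.26 ± 0.17 (log2 ± SE, adjusted p = 1.87e-08), with steps of 3.70 from D5 and 2.83 from D7. Arrdc4 had 1.46, 1.40 and 3.0 CPM at D5, 21.9, 14.9 and 16.8 CPM at D6, and 1.79, 1.23 and 4.03 CPM at D7, again with no overlap. The contrast was 3.05 ± 0.24 (adjusted p = 1.43e-08), with nearly equal steps of 3.17 and 2.92.

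These 2 genes were not highest at D6 over the whole course. Txnip averaged 366 CPM at D8, 743 CPM at D10 and 1139 CPM at D15, and Arrdc4 48.6 CPM at D8, 62.0 CPM at D10 and 54.0 CPM at D15, and D6 was called below each of those days for both genes. The D7 level was therefore a trough between D6 and D8. Slc2a1, the glucose transporter GLUT1, averaged 3127 CPM at D5, 2420.0 CPM at D6 and 1097 CPM at D7, so it declined through all 3 days and its call (contrast 0.39, adjusted p = 0.0282) is a bend. That call was lost in 5 of 9 fits with a library left out (adjusted p up to 0.110, without the D6 library MR23). Txnip shares exon sequence with Gm15441, so its counts may hold reads of that gene.

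The 250 bases before the Txnip start site are shown because they carry a pair of E-boxes of the kind bound by MondoA and ChREBP, in capitals with the 5 bases between them (RefSeq, GRCm38.p6, plus strand, chr3:96557707-96557956).
Txnip: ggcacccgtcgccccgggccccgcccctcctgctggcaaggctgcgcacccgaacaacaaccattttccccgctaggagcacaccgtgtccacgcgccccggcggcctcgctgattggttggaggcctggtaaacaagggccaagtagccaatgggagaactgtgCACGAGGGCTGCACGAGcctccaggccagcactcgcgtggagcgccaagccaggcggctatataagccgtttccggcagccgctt
The pair begins 85 bases before the start site. The pattern searched was CACGNG, 5 bases and CACGNG, on either strand, in windows of 250 bases before to 50 after each start site, and it was added after the Txnip values were seen. It occurred in 10 of 12025 windows of tested genes (0.0832%). Among these were 1 of 303 windows of peaks (Txnip) and 1 of 352 windows of dips (Fnip1). The window of Arrdc4 held the letters CACGTG but not the pair. A match describes letters and not binding.

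**Figure D2:**
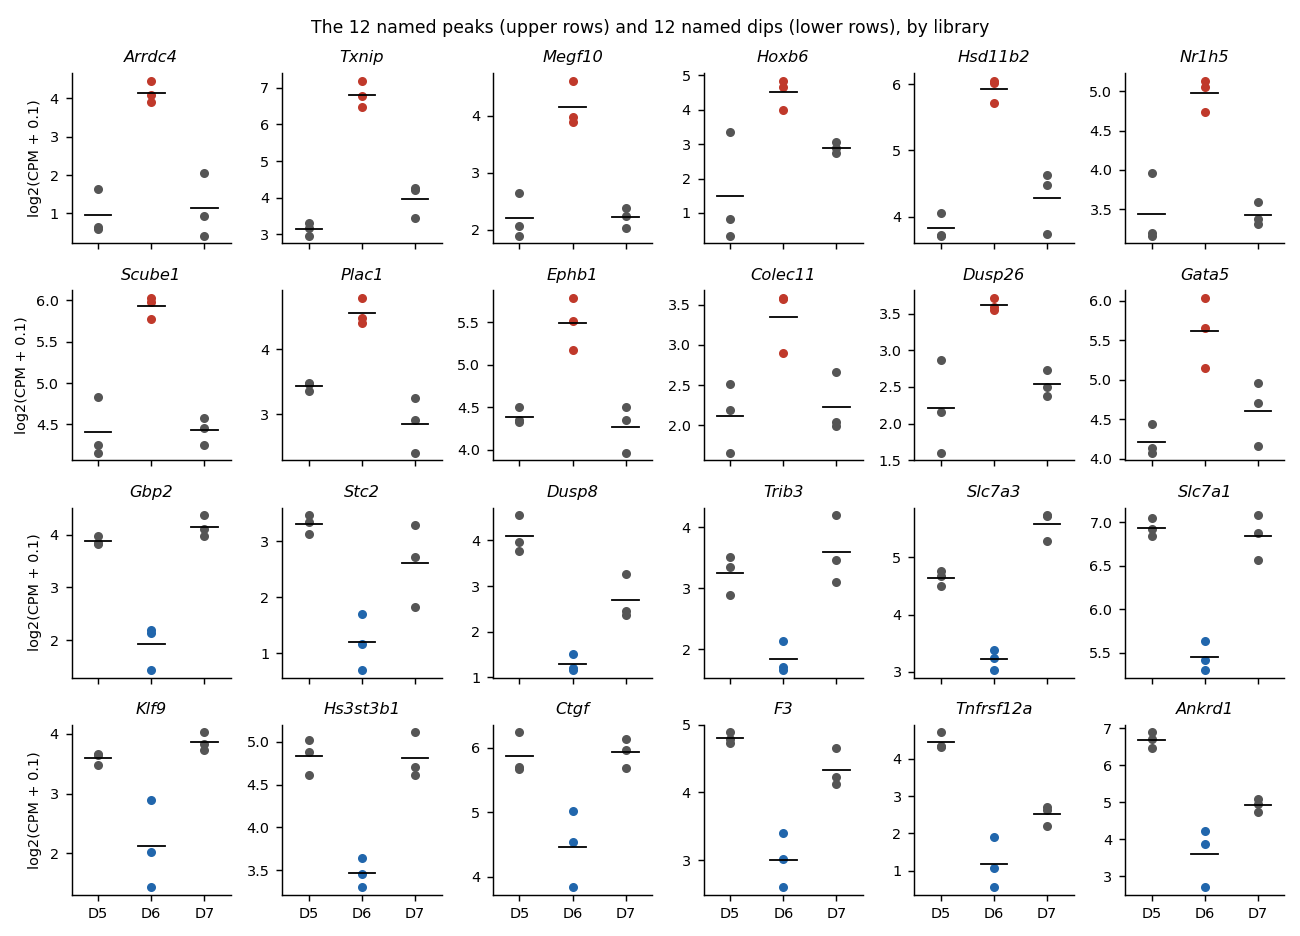
Levels as log2(CPM + 0.1) in each library of D5, D6 and D7 for the 12 named peaks (red at D6) and the 12 named dips (blue at D6), with bars at day means. All 3 D6 points lie beyond all 6 points of D5 and D7 in every panel, which the naming rule required, and Hoxb6 has 1 D5 point far above the other 2.

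The other 10 largest peaks among genes of at least moderate level were Megf10, Hoxb6, Hsd11b2, Nr1h5, Scube1, Plac1, Ephb1, Colec11, Dusp26 and Gata5. Megf10, an engulfment receptor of satellite cells and glia, had 4.07, 3.63 and 6.14 CPM at D5, 14.7, 15.6 and 24.3 CPM at D6, and 4.62, 4.01 and 5.12 CPM at D7. Its contrast was 1.98 ± 0.22 (adjusted p = 2.72e-07), and D5 and D7 were level. Hsd11b2, the enzyme that inactivates glucocorticoids, averaged 14.2 ± 1.96 CPM at D5, 61.1 ± 7.53 CPM at D6 and 20 ± 6.04 CPM at D7, a contrast of 1.86 (adjusted p = 8.88e-06), and later stood at 115 CPM at D8, 131 CPM at D10 and 8.63 CPM at D15. Nr1h5, the nuclear receptor FXR beta, had 8.88, 9.09 and 15.5 CPM at D5, 26.6, 34.9 and 33.1 CPM at D6, and 10.3, 9.88 and 11.9 CPM at D7. It then declined to 6.81 CPM at D8, 2.33 CPM at D10 and 0.112 CPM at D15, and D6 was called above every other day. Scube1, a secreted and membrane-bound EGF-domain protein, averaged 21.7 ± 5.90 CPM at D5, 61.0 ± 5.67 CPM at D6 and 21.6 ± 2.5 CPM at D7, with nearly equal steps of 1.49 and 1.5. The placental gene Plac1, on the X chromosome, averaged 10.7 ± 0.452 CPM at D5, 23.7 ± 3.43 CPM at D6 and 7.36 ± 2.12 CPM at D7, and D6 was above each of the 5 other days. Colec11, a collectin of the lectin complement pathway, averaged 4.37 ± 1.27 CPM at D5, 10.3 ± 2.60 CPM at D6 and 4.71 ± 1.34 CPM at D7 and Dusp26, a phosphatase of MAP kinases, 4.84 ± 2.18 CPM at D5, 12.2 ± 0.754 CPM at D6 and 5.74 ± 0.736 CPM at D7. Colec11, Dusp26 and Gata5 did not pass a test against a minimum fold of 1.5.

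Several HOX genes of the B cluster peaked at D6. HOX proteins give cells their place along the head-to-tail axis, and in the heart field the anterior B genes mark its posterior part. Of 24 HOX genes listed, 10 passed the filter, and 7 of them, all from the B cluster, were called higher (12% of all genes tested were). Hoxb2, Hoxb4, Hoxb5, Hoxb6 and Hoxb8 were peaks, where peaks were 2.74% of all genes. Without MR24 and MR27 the count of HOX peaks was 3. Hoxb5 had 9.75, 9.78 and 12.4 CPM at D5, 35.3, 40.7 and 30.3 CPM at D6, and 18.8, 22.5 and 17.5 CPM at D7, and every D6 library was above every D5 and D7 library. Its contrast was 1.29 ± 0.14 (adjusted p = 8.48e-08). Hoxb4 averaged 20.5 ± 4.01 CPM at D5, 56.9 ± 5.84 CPM at D6 and 42.0 ± 5.25 CPM at D7, with a large step from D5 (1.47) and a small step from D7 (0.44). Hoxb6 had 1.16, 1.68 and 10.1 CPM at D5, 15.9, 25.4 and 28.5 CPM at D6, and 6.55, 7.25 and 8.22 CPM at D7, so 1 D5 library was far above the other 2 and the spread at D5 was wide. Its contrast was 2.04 ± 0.39 (adjusted p = 0.002), and without MR24 and MR27 its step from D7 missed the threshold (adjusted p = 0.0969). Hoxb2 averaged 85.0 CPM at D5, 128 CPM at D6 and 102 CPM at D7 and Hoxb8 2.07 CPM at D5, 7.29 CPM at D6 and 2.91 CPM at D7.

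Hoxb1 differed from the others of its cluster. This most anterior B gene, a marker of the posterior second heart field, had 106, 125 and 112 CPM at D5, 108, 115 and 78.8 CPM at D6, and 25.2, 29.2 and 22.2 CPM at D7. D6 was level with D5 (-0.18, adjusted p = 0.247) and far above D7 (1.98, adjusted p = 1.4e-11), so its contrast of 0.90 is the bend of a plateau that ended after D6. Hoxb3 was above D5 (0.49) but its step from D7 missed the threshold (0.30, adjusted p = 0.0515). Under the filter, Hoxb7 had 2, 1 and 4 counts at D5, 8, 12 and 17 counts at D6, and 5, 5 and 9 counts at D7. Hoxb9, also under it, was highest at D7, with 1, 5 and 1 counts at D5, 2, 3 and 7 counts at D6, and 8, 9 and 9 counts at D7. Hoxb5 overlaps the exons of Hoxb5os, and Hoxb genes neighbour each other, so reads of partner transcripts may be included.

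Receptors and ligands of the Eph family, which keep groups of cells apart by repulsion on contact, held 5 peaks among 18 tested genes, all from the B class, where peaks were 2.74% of all genes. The list was drawn up after values had been seen. Of 22 entries 18 passed the filter, and 7 (38.9%) were called higher against 12% of all genes, with a median contrast of 0.27 over the 18 against 0.02 over all genes. Leaving out MR24 and MR27 gave 6 called higher and 4 peaks. Ephb2 had 57.2, 65.6 and 58.4 CPM at D5, 151, 146 and 155 CPM at D6, and 103, 91.3 and 82.6 CPM at D7. The contrast of this receptor was 1.01 ± 0.07 (adjusted p = 1.01e-10), with no overlap between days. Efnb1, a membrane-bound ligand, averaged 182 ± 16.2 CPM at D5, 338 ± 9.73 CPM at D6 and 251 ± 16.5 CPM at D7, and its relative Efnb3 51.0 ± 8.63 CPM at D5, 122 ± 2.14 CPM at D6 and 90.8 ± 6.06 CPM at D7. Ephb1 had 19.9, 20.3 and 22.5 CPM at D5, 55.1, 45.8 and 36.1 CPM at D6, and 22.5, 20.4 and 15.5 CPM at D7 and a contrast of 1.18 ± 0.13 (adjusted p = 2.41e-07). Ephb3 averaged 31.3 CPM at D5, 50.9 CPM at D6 and 39.4 CPM at D7 with a contrast of 0.53. Efnb2, the arterial ligand, had a contrast of 0.02 and Epha4 of 0.07, and neither passed. Ephb1 shares exon sequence with Gm26846.

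Among 18 tested cardiac transcription factors, 7 (38.9%) were called higher against 12% of all genes, and Srf, the serum response factor, was called lower. The call of Srf was lost without MR24 and MR27. The 3 peaks were Gata5, Tbx20 and Hand2, where peaks were 2.74% of all genes. Gata5, a zinc-finger factor of endocardium and early heart tube, had 17.5, 21.7 and 16.8 CPM at D5, 65.3, 50.4 and 35.5 CPM at D6, and 31.1, 25.9 and 17.8 CPM at D7. Its contrast of 1.22 ± 0.23 (adjusted p = 0.00156) was the largest of the list, though its exons overlap the antisense gene Gata5os and the use of strand in counting was not given. Tbx20, a T-box factor of heart muscle and endocardium, had 252, 259 and 314 CPM at D5, 418, 373 and 382 CPM at D6, and 258, 273 and 306 CPM at D7. The steps of 0.51 and 0.49 were nearly equal, so D6 stood over a flat baseline. Hand2, a basic helix-loop-helix factor of the second heart field, averaged 85.0 ± 3.23 CPM at D5, 132 ± 11.9 CPM at D6 and 109 ± 13.3 CPM at D7 and its step from D7 was small (0.27, adjusted p = 0.0234), and it was no peak in 3 of 9 fits with a library left out. The exons of Hand2 overlap Hand2os1. Gata4 and Tbx2 were bends of another kind: both reached their D7 level at D6. Gata4 averaged 159 CPM at D5, 380.4 CPM at D6 and 408 CPM at D7 and Tbx2 13.2 CPM at D5, 44.7 CPM at D6 and 40.1 CPM at D7.

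Pdgfra, the PDGF receptor of cardiac mesoderm, was a shallow but very even peak with 240.2, 218 and 228 CPM at D5, 401, 359.6 and 383 CPM at D6, and 232, 224 and 218 CPM at D7. Its contrast was 0.75 ± 0.06 (adjusted p = 1.32e-10), and D6 was not distinguished from D8. Its exons overlap those of Gm42802 and Gm42803. The BMP targets Id1 and Id3, inhibitors of basic helix-loop-helix factors, were both peaks. Id1 had 35.7, 40.5 and 40.8 CPM at D5, 55.1, 72.6 and 43.7 CPM at D6, and 35.1, 32.7 and 31.3 CPM at D7. Id3 averaged 132 ± 9.51 CPM at D5, 191 ± 26.5 CPM at D6 and 101 ± 9.61 CPM at D7, a contrast of 0.73 ± 0.13 (adjusted p = 0.000942). Bmp7, a ligand of the same pathway, went the other way and was a dip with 41.9 ± 3.46 CPM at D5, 30.5 ± 2.26 CPM at D6 and 42.5 ± 1.10 CPM at D7 (contrast -0.47, adjusted p = 0.00252). It was a bend without MR24 and MR27, where its step from D7 missed the threshold (adjusted p = 0.0623). Of 14 tested BMP genes, 4 (28.6%) were called higher and Bmp7 (7.14%) lower, against 12% and 9.01% of all genes. Bmp4 had a contrast of -0.05 and Smad6 of 0.16, and neither passed.

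The cell cycle genes were the list with the largest share called higher. Of 30 genes, 26 (86.7%) were called higher at D6, against 12% of all genes. All 30 estimates were above zero, with a median contrast of 0.34. The typical profile was not a peak. Over the list the median step was 0.07 from D5 and 0.57 from D7, so most of these genes held their D5 level at D6 and were lower at D7. Peaks were 5 of the 30, against 2.74% of all genes. They were Mki67, Ccnb2, Rrm1, Top2a and Birc5, which serve proliferation, mitosis, nucleotide supply, chromosome untangling and chromosome segregation. Mki67 had 580.5, 513 and 596 CPM at D5, 857, 744 and 832 CPM at D6, and 367, 489.9 and 482 CPM at D7. Its contrast was 0.69 ± 0.08 (adjusted p = 3.49e-06), with no overlap between days. Rrm1, the large subunit of ribonucleotide reductase, had 323, 321 and 319 CPM at D5, 419, 422 and 415 CPM at D6, and 281, 284 and 286 CPM at D7, with little spread within a day. Mcm5, a subunit of the replicative helicase, averaged 322 CPM at D5, 362 CPM at D6 and 207 CPM at D7, and its step from D5 missed the threshold (0.17, adjusted p = 0.0793).

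**Figure D3:**
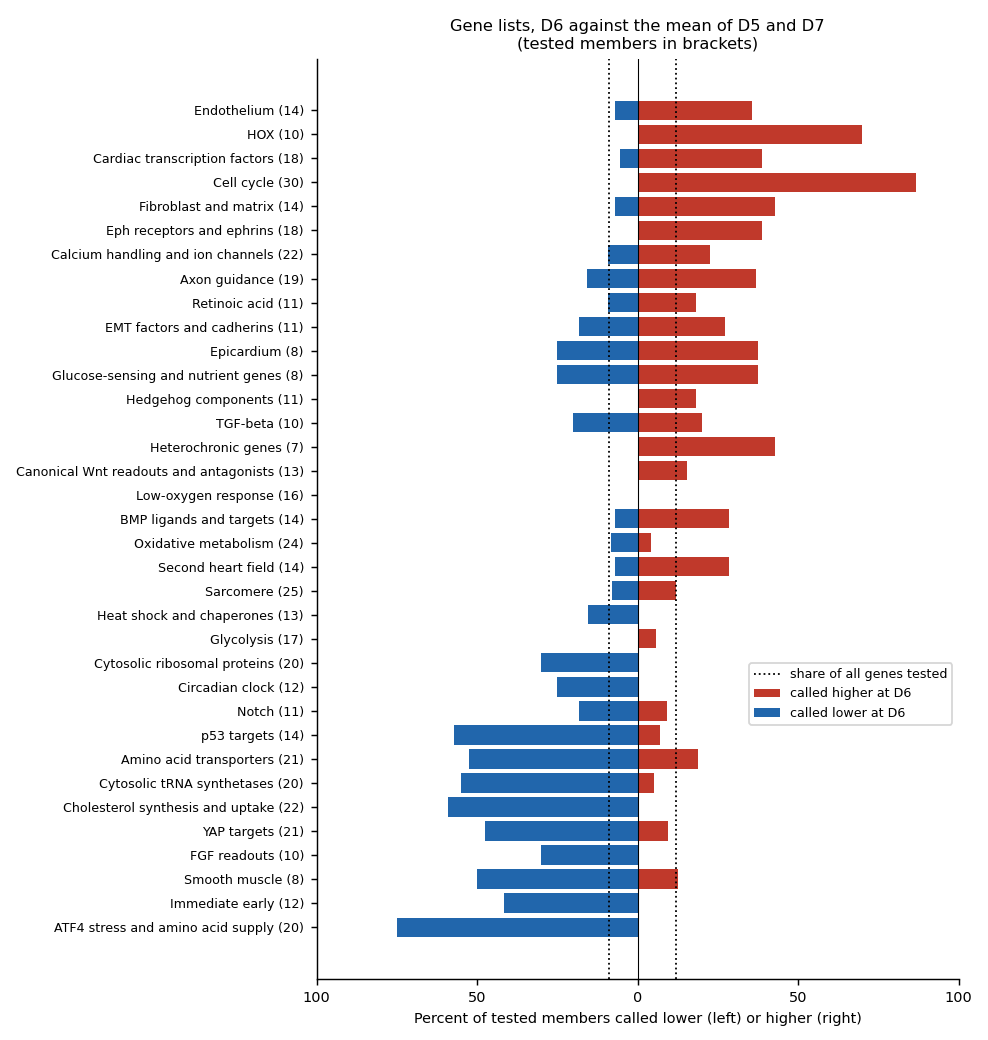
Share of tested members of each list called lower (blue, left) or higher (red, right) in the contrast, in percent, with the number tested in brackets and dotted lines at the shares over all genes (9.01% lower, 12% higher). Lists are ordered by median contrast, and the cell cycle list reaches 86.7% higher and the ATF4 list 75% lower.

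On the other side, the list of ATF4 stress and amino acid supply genes had the largest share called lower. ATF4 is a transcription factor whose translation increases when amino acids run short or the endoplasmic reticulum is stressed, and it binds the amino acid response element in the promoters of transporters, of serine and asparagine enzymes and of tRNA synthetases. Of 20 listed ATF4 targets and partners, 15 (75%) were called lower at D6, against 9.01% of all genes. Dips were 9 of the 20, against 2.77% of all genes. All 20 estimates were below zero, and the median contrast was -0.89. Without MR24 and MR27, 12 were called lower and 9 were dips.

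Asns, asparagine synthetase, had 189.9, 186 and 178 CPM at D5, 82.6, 100 and 95.9 CPM at D6, and 172, 201 and 226 CPM at D7. Its contrast was -1.05 ± 0.10 (adjusted p = 5.37e-07), with steps of -0.99 from D5 and -1.11 from D7 and no overlap. Slc7a5, the large neutral amino acid transporter, had 172, 186 and 167 CPM at D5, 77.7, 85.2 and 101 CPM at D6, and 225, 278 and 339 CPM at D7. D7 was called above D5 for this gene, so the dip was deeper on its later side (-1.68 from D7, -1.0 from D5). Trib3, a pseudokinase induced by ATF4, had 7.28, 11.3 and 10.1 CPM at D5, 3.06, 4.29 and 3.17 CPM at D6, and 8.49, 11 and 18.3 CPM at D7, a contrast of -1.64 ± 0.29 (adjusted p = 0.000149). The serine and folate enzymes Psat1, Phgdh, Shmt2 and Mthfd2 were all dips. Psat1 averaged 224 ± 24.8 CPM at D5, 101 ± 13.1 CPM at D6 and 148 ± 18.1 CPM at D7, and Mthfd2 116 ± 1.5 CPM at D5, 51.5 ± 7.80 CPM at D6 and 97.3 ± 11.5 CPM at D7. Atf5, a relative of ATF4, averaged 92.0 ± 6.25 CPM at D5, 39.9 ± 5.6 CPM at D6 and 94.4 ± 20.1 CPM at D7 with a contrast of -1.22.

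Atf4 itself had 225, 244 and 221 CPM at D5, 129, 171 and 128 CPM at D6, and 155, 173 and 211 CPM at D7. It was called lower in the contrast (-0.51 ± 0.11, adjusted p = 0.00392), but the step from D7 missed the threshold (-0.33, adjusted p = 0.0628) and a D6 library lay among the D7 values. Slc7a11, the cystine transporter, was called through D7 alone, with means of 1.08 CPM at D5, 0.665 CPM at D6 and 3.36 CPM at D7. The stress factor Ddit3 did not pass, with 7.35 CPM at D5, 7.38 CPM at D6 and 13.4 CPM at D7, nor did Chac1, a glutathione-degrading enzyme, with 6.55 CPM at D5, 2.87 CPM at D6 and 3.48 CPM at D7. The exons of Atf5 overlap Il4i1 and Nup62, and those of Shmt2 overlap Ndufa4l2.

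The cytosolic tRNA synthetases, which load amino acids onto their tRNAs, moved less, and not all of them did. This list and the next were drawn up after values had been seen. Of 20 enzymes 11 (55%) were called lower against 9.01% of all genes. Dips were 10 of the 20, against 2.77% of all genes, with 7 dips in the count without MR24 and MR27. Estimates of 5 enzymes were above zero, and Wars, the tryptophan enzyme, was called higher as a bend (contrast 0.19), a call lost without those libraries. Sars, for serine, had 190.0, 205 and 204 CPM at D5, 137, 146 and 132 CPM at D6, and 231, 253 and 279.8 CPM at D7. Its contrast of -0.70 ± 0.07 (adjusted p = 6.06e-09) was the lowest of the list. Iars, for isoleucine, had 348, 323 and 329 CPM at D5, 203, 201 and 204 CPM at D6, and 264, 296 and 318 CPM at D7, and the 3 D6 values lay within 2 CPM of the day mean. Gars averaged 348 ± 5.23 CPM at D5, 215 ± 8.38 CPM at D6 and 317 ± 31.9 CPM at D7 and Yars 181 ± 6.33 CPM at D5, 122 ± 4.69 CPM at D6 and 169 ± 16.6 CPM at D7. The step from D5 was larger than that from D7 in Nars (-0.69 and -0.23) and smaller in Sars (-0.53 and -0.88). Aars had 341, 313 and 305 CPM at D5, 262, 267 and 247 CPM at D6, and 270.1, 315 and 347 CPM at D7, the shallowest of the 10 dips in the contrast (-0.28).

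Of 21 amino acid transporters 11 (52.4%) were called lower and 4 (19.0%) higher, against 9.01% and 12% of all genes. These counts were 9 and 2 without MR24 and MR27. The 5 dips were Slc7a3, Slc7a1, Slc7a5, Slc1a4 and Slc6a9, where dips were 2.77% of all genes. Slc7a3, Slc7a5, Slc7a11 and Slc3a2 are also in the ATF4 list, so the dips of Slc7a3 and Slc7a5 were counted there too. Slc7a3 and Slc7a1 both carry cationic amino acids. Slc7a3 had 25.6, 27.0 and 22.5 CPM at D5, 8.11, 9.34 and 10.3 CPM at D6, and 38.9, 53.2 and 53 CPM at D7, a contrast of -1.91 ± 0.15 (adjusted p = 2.58e-10). Slc7a1 had 132, 114 and 121 CPM at D5, 39.3, 42.6 and 49.6 CPM at D6, and 94.6, 117 and 135 CPM at D7. With D5 and D7 level, its steps of -1.48 and -1.40 were equal within their error, and the adjusted p of the contrast was 3.01e-10. Slc1a4, a carrier of small neutral amino acids, averaged 69.7 ± 3.38 CPM at D5, 41.4 ± 1.41 CPM at D6 and 79.3 ± 15.1 CPM at D7, and Slc6a9, the glycine transporter, 21.4 ± 1.48 CPM at D5, 13.1 ± 0.986 CPM at D6 and 32.0 ± 7.59 CPM at D7. Only 73.7% of the 50-base stretches of Slc6a9 were unique, so its counts are uncertain. Slc43a2, a large neutral amino acid transporter, went the other way with a contrast of 0.65 (adjusted p = 2.53e-05).

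Promoter stretches of members of these lists are shown because they hold the letters of the amino acid response element, TGATGCAA on either strand, in capitals (RefSeq, GRCm38.p6). For Aars (plus strand, chr8:111033592-111033841) and Slc7a11 (minus strand, chr3:50443614-50443863) the 250 bases before the start site are given. For Iars (plus strand, chr13:49682126-49682155), Yars (plus strand, chr4:129189895-129189924) and Slc1a4 (minus strand, chr11:20332699-20332728) 30 bases around a match at or just after the start site are given.
Aars: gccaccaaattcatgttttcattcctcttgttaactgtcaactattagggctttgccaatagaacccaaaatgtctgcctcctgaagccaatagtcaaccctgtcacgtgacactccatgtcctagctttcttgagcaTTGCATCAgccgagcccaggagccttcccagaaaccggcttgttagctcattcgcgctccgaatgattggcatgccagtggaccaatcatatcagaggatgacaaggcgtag
Slc7a11: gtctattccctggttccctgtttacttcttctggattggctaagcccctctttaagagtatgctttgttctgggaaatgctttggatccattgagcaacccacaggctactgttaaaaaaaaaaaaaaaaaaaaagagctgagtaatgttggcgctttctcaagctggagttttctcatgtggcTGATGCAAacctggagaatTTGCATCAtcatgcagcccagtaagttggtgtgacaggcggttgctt
Iars: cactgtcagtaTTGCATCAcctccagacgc
Yars: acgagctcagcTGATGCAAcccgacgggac
Slc1a4: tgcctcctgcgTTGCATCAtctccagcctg
The match of Aars begins 112 bases before the start site, and Slc7a11 has 2 matches, 66 and 47 bases before it. In windows of 250 bases before to 50 after the start site, the element occurred in 0.607% of 12025 windows of tested genes. It occurred in 4 of 20 windows of the ATF4 list (Chac1, Nupr1, Slc7a11 and Vldlr) and in 4 of 12 of the tRNA synthetases (Aars, Iars, Tars and Yars). Among the amino acid transporters Slc1a4, Slc7a7 and Slc7a11 held it. Over all dips it occurred in 5 of 352 windows (1.42%), those of Aars, Ank2, Iars, Slc1a4 and Yars. No gene of the ATF4 list with the letters was therefore a dip, and the dips of that list with a window lacked them. Of the genes shown, Slc7a11 was a bend and the other 4 were dips. Among members of these lists not shown, Tars, Chac1, Nupr1, Vldlr and Slc7a7 have the letters, and none was a dip. Tars (-0.05) and Chac1 did not pass in the contrast.

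**Figure D4:**
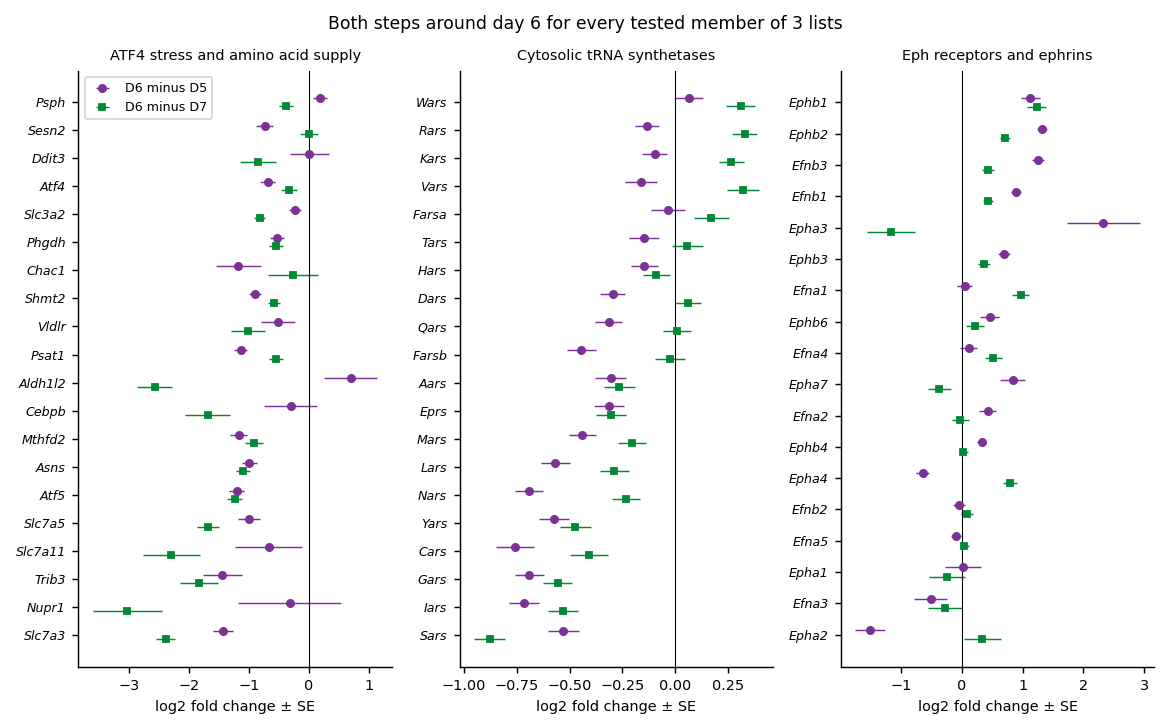
Steps of every tested member of 3 lists as log2 fold changes with SE bars, D6 minus D5 (purple circles) and D6 minus D7 (green squares), ordered by contrast. In the ATF4 list all but 3 circles and all but 1 square lie below zero, and in the Eph list the 5 peaks have both symbols above zero.

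Several genes of cholesterol synthesis and uptake also dipped. These are driven by SREBP2, which is released when membrane sterol falls. Of 22 genes 13 (59.1%) were called lower at D6, against 9.01% of all genes, with a median contrast of -0.31. Dips were 8 of the 22, against 2.77% of all genes. Without MR24 and MR27, 14 were called lower and 9 were dips. Insig1, which holds SREBP2 back and is itself a target of it, had 171, 169.6 and 174 CPM at D5, 113, 128 and 149 CPM at D6, and 215, 237 and 230.4 CPM at D7. Its contrast was -0.61 ± 0.07 (adjusted p = 1.46e-07). Hmgcs1, an enzyme of the early pathway, averaged 1521 ± 44.4 CPM at D5, 1303 ± 92.2 CPM at D6 and 1883 ± 104 CPM at D7. The exons of Hmgcs1 overlap Gm48342. Over the list the median step was -0.51 from D7 and -0.19 from D5, so the later side of the trough was the deeper side.

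A further group of dips holds genes known to respond to YAP, to cell tension and to serum. Of 21 tested YAP targets, again a list made after values had been seen, 10 (47.6%) were called lower and 2 (9.52%) higher, against 9.01% and 12% of all genes. The 4 dips were Ankrd1, F3, Ctgf and Crim1, where dips were 2.77% of all genes. When MR24 and MR27 were left out, 8 were called lower and 1 higher, and 3 were dips. Ankrd1, a muscle ankyrin repeat protein, had 103, 118 and 88.8 CPM at D5, 6.42, 14.6 and 18.5 CPM at D6, and 30.5, 33.9 and 26.7 CPM at D7. It was far lower at D6 than at D5 (-2.98) and less so than at D7 (-1.21, adjusted p = 0.0356), and it was no dip in 5 of 9 fits with a library left out. Ctgf, a secreted matrix-associated protein also called Ccn2, had 52.1, 75.6 and 50.7 CPM at D5, 14.2, 32.3 and 23.1 CPM at D6, and 51.7, 70.1 and 62.8 CPM at D7. D5 and D7 were level, and its contrast was -1.38 ± 0.23 (adjusted p = 0.000758). The exons of Ctgf overlap Gm15270. F3, tissue factor, averaged 27.9 ± 1.52 CPM at D5, 8.13 ± 2.25 CPM at D6 and 20.4 ± 4.27 CPM at D7. Cyr61, a relative of Ctgf, was called lower in the contrast (-1.22) but its step from D7 missed the threshold (-0.34, adjusted p = 0.357). Tnfrsf12a, the TWEAK receptor, had 20.1, 26 and 19.6 CPM at D5, 1.38, 1.99 and 3.65 CPM at D6, and 4.47, 6.48 and 6.05 CPM at D7, and its contrast of -2.25 ± 0.25 (adjusted p = 1.38e-07) rested mostly on the step from D5.

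Of 8 contractile genes of smooth muscle, which the early heart also uses, 4 (50%) were called lower and Mylk (12.5%) higher, against 9.01% and 12% of all genes. Dips were 2 of the 8, against 2.77% of all genes. These counts were 3 called lower and 1 dip without MR24 and MR27. The summed level of the 8, which includes the uncertain counts of Tagln, ran from 3653 to 3983 CPM at D5, from 2055 to 2736 CPM at D6 and from 3402 to 4160.4 CPM at D7. No D6 library therefore overlapped D5 or D7, but the D8 sums, from 2111 to 2368 CPM, lay within the range of D6. Tpm1, a tropomyosin of all muscle listed with the sarcomere genes, had 2577, 2662 and 2377 CPM at D5, 1028, 1235 and 1185 CPM at D6, and 1258, 1449 and 1381 CPM at D7. It is a dip (contrast -0.69 ± 0.07, adjusted p = 3.8e-07), with most of its step from D5, but without MR24 and MR27 its step from D7 missed the threshold (adjusted p = 0.0931). Tagln had 1332, 1417 and 1189 CPM at D5, 297, 456 and 429 CPM at D6, and 592, 708 and 787 CPM at D7, but only 41.7% of its 50-base stretches were unique and its exons overlap Pcsk7, so its counts are uncertain. Lmod1, an actin nucleator, averaged 24.3 ± 2.45 CPM at D5, 16.5 ± 2.25 CPM at D6 and 24.5 ± 2.91 CPM at D7, and its call in the contrast was lost without MR24 and MR27 (adjusted p = 0.0609). Acta2 averaged 1291 ± 75 CPM at D5, 1174 ± 181 CPM at D6 and 2221 ± 167 CPM at D7, so D6 was level with D5 and under D7. What part the amount of smooth muscle cells has in the lower YAP targets was not tested.

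Some immediate early genes and feedback genes of growth factor signals were lower too, mostly with D7 level with D6. Of 12 immediate early genes 5 (41.7%) were called lower against 9.01% of all genes, 4 of them as bends. All 12 estimates were below zero (median contrast -0.74). The dip was Ctgf, which like Cyr61 is also among the YAP targets above. Dusp1, a phosphatase of MAP kinases, averaged 51.7 ± 10.3 CPM at D5, 18.4 ± 4.80 CPM at D6 and 21.5 ± 1.39 CPM at D7. Myc, a growth factor-induced transcription factor, had 22.8 CPM at D5, 5.93 CPM at D6 and 6.11 CPM at D7. Dusp8, a related phosphatase and a named dip, had 13.5, 23.3 and 15.5 CPM at D5, 2.14, 2.76 and 2.22 CPM at D6, and 5.06, 5.40 and 9.46 CPM at D7, a contrast of -2.17 ± 0.26 (adjusted p = 3.88e-07). Of 10 FGF readouts 3 (30%) were called lower against 9.01% of all genes, and 1 was a dip, against 2.77%. This dip was Spry1, a feedback inhibitor, with 11.8 ± 2.48 CPM at D5, 4.92 ± 1.29 CPM at D6 and 8.27 ± 1.60 CPM at D7. Only 78.2% of the 50-base stretches of Spry1 were unique, so its counts are uncertain. Of 14 p53 targets 8 (57.1%) were called lower and Sesn1 (7.14%) higher, against 9.01% and 12% of all genes, with Cdkn1a, the p21 inhibitor, at a contrast of -0.64 and Mdm2, which degrades p53, at -0.38.

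The remaining named dips were Gbp2, Stc2, Klf9 and Hs3st3b1. Gbp2, an interferon-induced GTPase, had 15.7, 14.3 and 14 CPM at D5, 2.60, 4.29 and 4.44 CPM at D6, and 15.6, 17.3 and 20.6 CPM at D7. It had the largest size of the 12 named dips, with steps of -1.95 and -2.24 and an adjusted p of 3.21e-09 for the contrast. Stc2, a secreted glycoprotein and another known ATF4 target, had 10.9, 10.1 and 8.59 CPM at D5, 1.53, 2.14 and 3.17 CPM at D6, and 3.42, 6.48 and 9.61 CPM at D7. Klf9, a Krüppel-like factor induced by glucocorticoid, had 11.1, 12.6 and 12.4 CPM at D5, 2.60, 7.35 and 3.96 CPM at D6, and 13.3, 16.2 and 14.1 CPM at D7, where 1 D6 library was well above the other 2. It averaged 23.8 CPM at D8, 49.4 CPM at D10 and 231 CPM at D15 later, so its D6 dip preceded a steep rise. Hs3st3b1, a heparan sulfate sulfotransferase, averaged 28.6 ± 4.06 CPM at D5, 11 ± 1.29 CPM at D6 and 28.2 ± 5.41 CPM at D7, with equal steps of -1.38 and -1.36.

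Hedgehog signalling was the theme of the wider study and was therefore examined by name. Ptch1, the receptor and a direct GLI target, had 39.3, 43.5 and 56.0 CPM at D5, 43.9, 44.7 and 46.9 CPM at D6, and 14.7, 21.3 and 20.8 CPM at D7. D6 was level with D5 (-0.04) and above D7 (1.26, adjusted p = 0.0012), a bend with a contrast of 0.61 ± 0.20 (adjusted p = 0.0439). That call was lost in 8 of 9 fits with a library left out (adjusted p up to 0.124) and without MR24 and MR27 (0.146). Hhip, another GLI target, had 2.62, 2.24 and 2.32 CPM at D5, 4.43, 3.98 and 3.49 CPM at D6, and 2.23, 2.93 and 2.64 CPM at D7. All its D6 values were above all others, but it did not pass (0.67 ± 0.30, adjusted p = 0.115). Gli1, the target most used as a readout, was under the filter with 4, 5 and 3 counts at D5, 8, 6 and 10 counts at D6, and 1, 2 and 6 counts at D7. Of the signal transducers Gli2 and Smo were called, both as bends (contrasts 0.25 and 0.21), and Gli3 was not (0.10). Without the D6 library MR22 the calls of Gli2 (adjusted p = 0.0564) and Smo (0.0770) were lost, and that of Smo also without MR23 (0.0524).

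Several other genes of the heart programme changed through the 3 days with no peak or dip at D6. Tnnt2, cardiac troponin T, averaged 119 ± 11.6 CPM at D5, 265 ± 50.1 CPM at D6 and 291 ± 96.4 CPM at D7 and its contrast did not pass (0.51, adjusted p = 0.243). The contrasts of Tbx5 (0.32 ± 0.37), Isl1 (-0.03 ± 0.31), Nkx2-5 (-0.13 ± 0.87) and Myh6 (0.20 ± 0.70) did not pass either, with errors wide enough to leave a change of either sign. The counts of Myh6 are uncertain, as given above. Mef2c had 92.7, 80.8 and 64.9 CPM at D5, 166, 122 and 94.9 CPM at D6, and 96.0, 95.8 and 60.8 CPM at D7 and missed the threshold (0.64 ± 0.23, adjusted p = 0.0633), but passed without MR24 (0.0391) and in DESeq2 (0.0269). Hand1 averaged 585 CPM at D5, 593 CPM at D6 and 322 CPM at D7, a plateau that ended after D6, and its call (contrast 0.45) was lost in 5 of 9 fits with a library left out. Fgf10, a ligand of the second heart field, averaged 77.7 ± 2.79 CPM at D5, 40.6 ± 9.38 CPM at D6 and 51.4 ± 6.03 CPM at D7, a bend lower (contrast -0.64). Aldh1a2, which makes retinoic acid, averaged 13.3 CPM at D5, 0.984 CPM at D6 and 0.309 CPM at D7, a fall that was nearly complete at D6. Lin28a, a heterochronic RNA-binding protein, fell steadily with 1021 CPM at D5, 526 CPM at D6 and 195 CPM at D7, and its relative Lin28b with 138 CPM at D5, 106 CPM at D6 and 78.7 CPM at D7. Lin28a was called by its bend (0.24), and Lin28b was not (0.02).

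**Figure D5:**
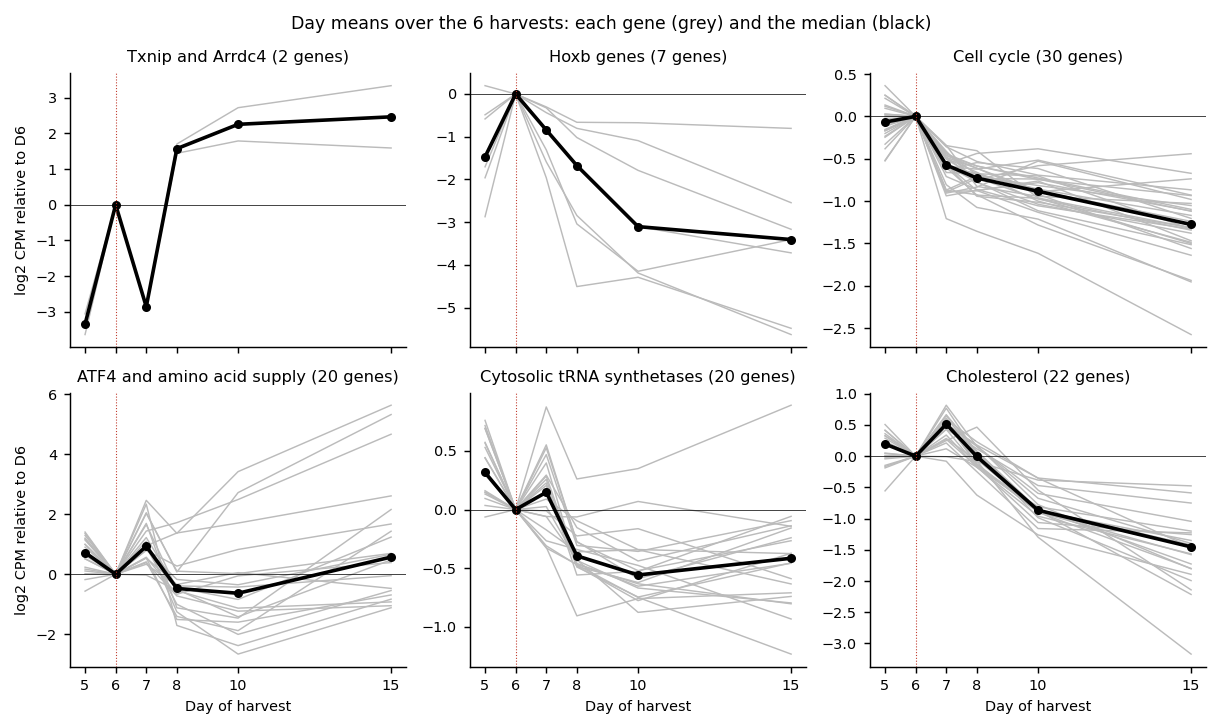
Day means over the 6 harvests as log2 CPM relative to D6 (vertical) against the day of harvest (horizontal), each gene in grey and the median in black, for 6 groups. Txnip and Arrdc4 are up at D6, down at D7 (median -2.85) and up again from D8, Hoxb genes decline after D6 (median -3.41 at D15), and the ATF4 list is above D6 at D7 (median 0.94) and below it at D8 (median -0.47).

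Over all 6 days the groups differed in what followed D6. The median Hoxb gene was 1.47 below D6 at D5, 0.84 below at D7 and 3.41 below at D15 on the log2 scale, so this median was highest at D6. For the cell cycle list the medians fell by 0.57 at D7 and by 1.28 at D15 relative to D6. The ATF4 list stood 0.72 above D6 at D5 and 0.94 above it at D7. At D8 the median of that list was -0.47 relative to D6 and at D15 0.57, so D6 was a trough among the progenitor days but not the lowest day. For cholesterol genes the median was 0.51 above D6 at D7, level with it at D8 (-0.01) and -1.45 relative to it at D15.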

How the data were processed

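The values are raw counts per gene symbol, which the authors deposited without scaling. Per the submitters' processing notes, reads were aligned with STAR to mm10, and per the labels' protocols they were single-end reads of 50 bases from a TruSeq RNA v2 kit. How reads were counted, whether strand was used and with which versions is not given in the sources used here. Columns were matched to days by name, they carry no replicate number, and 3 columns that match no sample were not used. Members and lists were chosen with earlier results of these data known, and 4 of 45 lists and the E-box pair were added after values had been seen.

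edgeR 4.0.16 in R 4.3.3 was used with filterByExpr (minimum count 10), TMM factors and a robust quasi-likelihood fit of a mean per day over all 18 libraries (12 residual degrees of freedom). Adjusted p-values are those of Benjamini and Hochberg across all 13116 genes. The biological coefficient of variation was 8.27%. The SE was obtained as the log2 fold change over the root of its F statistic. The ± on CPM is the SD of 3 libraries. Library pairs of a day were compared for copies by chi-square. The fit was tested on simulated data.

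Genes were named by a rule: the 12 largest peaks and 12 largest dips with mean log2 CPM of at least 2, no overlap of D6 with D5 or D7 and a symbol that is no predicted model, up to 4 called members of each list described, and a fixed set of heart and Hedgehog genes. Further list members were named after their values were seen, to show where a list was not uniform. A few of the genes so chosen are not reported here. Exon overlaps and unique 50-base stretches come from the mm10 annotation and transcripts, and genes under 80% unique are given as uncertain. Of the 155 genes named by the rule, 52 have exons that overlap another gene, and not every overlap is given above. Results were recomputed with DESeq2 1.42.0, limma-voom 3.58.1, scaling by RLE or the upper quartile, other filters, D5 to D7 alone, a fold threshold of 1.5, D5 and D7 pooled, 2-fold steps, and each library left out. Figures were made with matplotlib 3.10.9.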

Additional observations from a re-analysis of the deposited data

How the results depend on the processing

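Of 152 named genes under 19 alternatives, 2559 contrasts kept direction and side of the threshold, 321 lost the call, 2 gained it and 5 reversed. All 5 reversals came with D5 and D7 pooled as a single group, where the change between them counts as spread: -0.21 for Lin28a, -1.03 for Tbx18, -0.59 for Col3a1, -0.35 for Col1a2 and -0.46 for Postn. Pooling called 306 genes higher and 336 lower (47.7% of calls higher, against 57.2% in the fit reported), and the 24 largest peaks and dips kept their calls. A fold threshold of 1.5 called 96 higher and 65 lower, and 2-fold steps left 28 peaks and 47 dips. With each of the 9 libraries left out, genes called higher ran from 1038 to 1550 and lower from 727 to 1203, both lowest without the D6 library MR22. Peaks ran from 245 to 334 and dips from 248 to 374. In 1 or more of these 9 fits Hand2, Hoxb4, Hoxb6, Id1, Id3, Notch2 and Tgfbr1 were no peaks and Ankrd1, Spry1 and Tpm1 no dips. Without MR24 and MR27, 1138 genes were called higher and 839 lower. Scaling, tool and filter alternatives gave 1494 to 1626 higher and 1086 to 1206 lower, and a fit of D5 to D7 alone gave 1651 and 1398. At the depth of these libraries, Gli1 was too low to test. No paired analysis was possible because the columns carry no replicate number.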

Other observations

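Lists without a common direction also held peaks and dips at D6. In the TGF-beta list, which had 10 tested genes, 2 (20%) were called higher and 2 (20%) lower, against 12% and 9.01% of all genes. The number of dips was 2, against 2.77% of all genes, or 1 without MR24 and MR27. Tgfbr1, the type I receptor, was a peak with 231, 213 and 219 CPM at D5, 396, 345 and 347 CPM at D6, and 304, 331 and 295 CPM at D7. Skil, a feedback inhibitor, was a dip with means of 74.5 CPM at D5, 56.8 CPM at D6 and 80.9 CPM at D7 (contrast -0.45 ± 0.08, adjusted p = 6.62e-05).

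Krt19, a keratin of mesothelium and other epithelia, had 259, 274 and 246 CPM at D5, 51.8, 70.6 and 65.5 CPM at D6, and 76.5, 88.1 and 93.5 CPM at D7, with a contrast of -1.25 ± 0.09 (adjusted p = 2.58e-10). Most of its change was the step from D5 (-2.05). Upk3b, a mesothelial uroplakin, had means of 87.4 CPM at D5, 195 CPM at D6 and 179.9 CPM at D7 and so reached its D7 level at D6. Cell guidance and adhesion genes other than the Eph family held the peaks Slit2, a repulsive ligand, with 82.7, 78.7 and 103 CPM at D5, 168, 165 and 214 CPM at D6, and 73.6, 108 and 149 CPM at D7, and Cdh11, a mesenchymal cadherin, with 136, 152 and 166 CPM at D5, 235, 246 and 272 CPM at D6, and 149, 162 and 219.7 CPM at D7. In both, the D7 values spread more widely than those of D6. Notch2, a Notch receptor, was a shallow peak with means of 141 CPM at D5, 170.4 CPM at D6 and 124 CPM at D7 (contrast 0.37, adjusted p = 0.000228).

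Steep rises entered the contrast as bends. Cdh5, the endothelial cadherin, averaged 1.10 CPM at D5, 23.5 CPM at D6 and 23.8 CPM at D7, and Col3a1, a fibrillar collagen, 17.2 CPM at D5, 372 CPM at D6 and 1100.4 CPM at D7. Both were called higher in the contrast (2.20 and 1.43) although D6 lay under or level with D7.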
